A study of Homo sapiens with 8 samples.

Results

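Transcripts of 45 genes of the lysosome were measured: 32 genes of soluble enzymes, activators and carriers, 9 of membrane proteins, 3 of the V-ATPase and that of the transcription factor TFEB. They were taken by symbol from a list of known lysosomal genes, and all 45 were found among the 17166 genes of the table. The cells were HCT116, a human colorectal cancer cell line, stably carrying 1 of 2 doxycycline-inducible short hairpin RNAs against the homeobox gene HOXB8. Each line, sh1 and sh2, was grown for 72 hours with 1 ug/ml doxycycline (dox) or without it (no-dox), with 2 libraries per group and 8 in all. All 8 libraries thus carried a hairpin construct, and none had dox without a HOXB8 hairpin, so the effect of the drug and that of lower HOXB8 cannot be told apart. Single libraries are named by line, state and repeat, so that sh1-onB has dox and is repeat 2 of sh1, and sh1-offA has none and is repeat 1. The table calls the second line sh3, and it was matched to sh2 of the labels by elimination. Values are FPKM, fragments scaled to transcript length and library size, so that levels of different genes can be compared per length.

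The lysosome is the acid compartment in which cells break down protein, glycan, lipid and nucleic acid. Its soluble hydrolases are made in the endoplasmic reticulum and sorted through the Golgi, many of them by a mannose phosphate tag, while the V-ATPase pumps protons into the lumen. Many genes of this compartment are known targets of TFEB and its relative TFE3, which bind a DNA element called CLEAR. In the intestinal epithelium, as in other cells that take up and recycle much material, the compartment serves nutrient supply and the turnover of receptors.

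HOXB8 (Entrez identifier 3218), the gene the hairpins target, was lower with dox in both lines. It read 20.8 and 20.4 FPKM in sh1 without dox and 6.54 and 5.74 FPKM with it, and 17.3 and 18.4 FPKM in sh2 without dox and 7.39 and 6.41 FPKM with it. The states did not overlap, and over both lines it fell by 1.43 on the log2 scale (SE 0.05, adjusted p = 6.86e-07 by limma). Over the table, 11712 genes had a mean of 1 FPKM or more, and these were tested. The columns summed to between 440063 and 446889 FPKM, the number of reads behind them is not known, and libraries of a group correlated at r = 0.996 to 0.998 across genes. Of the epithelial markers, EPCAM (195 FPKM without dox, 213 FPKM with it), CDH1, KRT8, KRT18, KRT19 and CDX2 were measured, while VIL1 averaged 0.0075 FPKM. The summed level of these 7 epithelial markers was 2681 to 3324 FPKM in the no-dox libraries and 2598 to 2734 FPKM in the dox libraries. Of 8 immune markers, LYZ averaged 5.19 FPKM and PTPRC 1.31 FPKM. CD14, CD163, CSF1R, AIF1, CD3E and MS4A1 averaged 0.0325, 0.00375, 0.0575, 0.0275, 0.1 and 0.00375 FPKM. The summed level of these 8 was 5.7 to 6.84 FPKM without dox and 6.12 to 7.74 FPKM with it, most of it LYZ. That of the 6 fibroblast and endothelial markers in the table was 7 to 8.48 FPKM without dox and 6.77 to 8.81 FPKM with it. Most of it was COL1A1, which averaged 7.26 FPKM, and the others averaged 0.32 FPKM (PECAM1) or less.

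With dox, 20 of the 45 lysosomal genes rose, 1 fell and 24 did not pass the test. The genes that rose included the nuclease gene DNASE2, the glycan-degrading enzyme genes IDUA, GAA and NAGLU, the protease gene CTSD, the activator gene PSAP, the granulin gene GRN and the membrane protein genes LAMP1 and LAMP2. Their mean FPKM was 7.88% to 45.1% higher with dox, with a median of 15.2%, so the changes were small beside that of HOXB8. ATP6V1H, a V-ATPase subunit gene, was the member that fell, by 11.5%. The test was limma on log2(FPKM + 1), averaged over both lines, with Benjamini-Hochberg adjustment over all 11712 genes and a threshold of adjusted p under 0.05. By the same rule 10.1% of all tested genes were higher and 6.2% were lower, against 44.4% and 2.22% of the 45 genes. The median log2 change was 0.11 over the 45 genes and 0.02 over all tested genes. All 45 passed the filter on low values, with means from 2.64 FPKM (ARSB) to 225 FPKM (CD63). In bulk RNA, a shift in the kinds of cells and a shift in the RNA of each cell cannot be told apart.

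**Figure D1:**
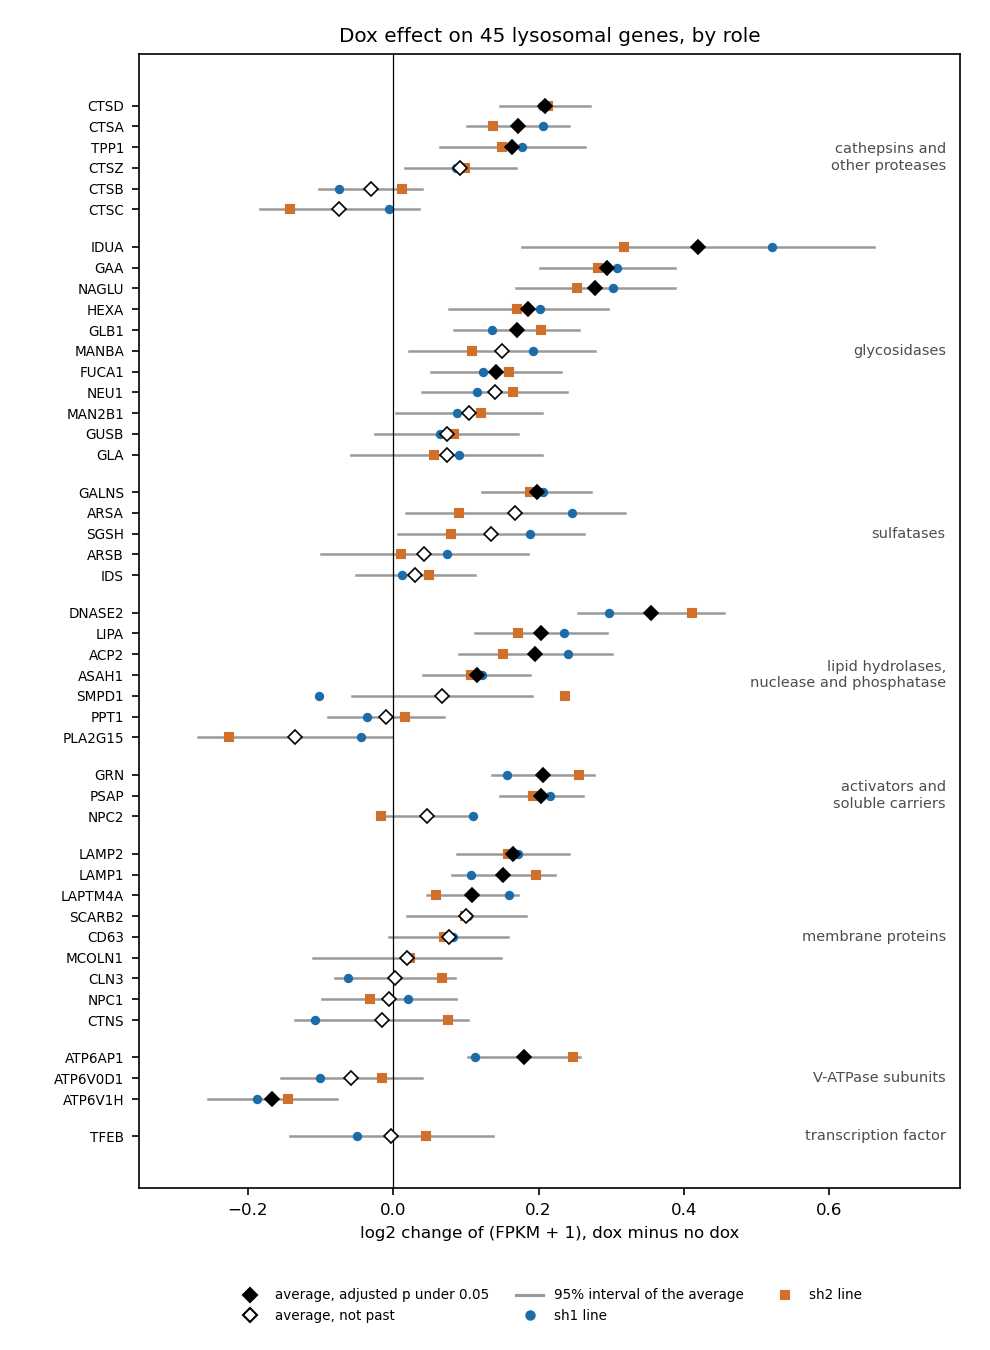
Log2 change of (FPKM + 1) with dox for each of the 45 genes, grouped by role, with the average over both lines as a diamond (filled where adjusted p was under 0.05), its 95% interval as a grey bar, and the sh1 and sh2 lines as a circle and a square. The 20 filled diamonds right of 0 lie in every role except that of TFEB, and 1 filled diamond, ATP6V1H, lies left of 0.

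Of the called genes, ACP2, FUCA1, HEXA, IDUA and TPP1 lost the call when genes of any level were tested (adjusted p = 0.0606, 0.0712, 0.0849, 0.114 and 0.088). With quantile normalization ASAH1 (0.0501), FUCA1 (0.0614) and TPP1 (0.0517) lost it, and with median-ratio scaling ASAH1 (0.0628), FUCA1 (0.0586), LAPTM4A (0.0594) and TPP1 (0.0562). With no trend in the moderation ASAH1 (0.0583), IDUA (0.0517), LAPTM4A (0.0657) and TPP1 (0.0594) lost it. With no term for the line ASAH1 (0.0537), FUCA1 (0.121), HEXA (0.0524), LAPTM4A (0.0925) and TPP1 (0.0698) did. The count of 20 was 12 without sh1-onB, 13 without sh1-offA, 12 without sh2-offA and 13 without sh2-offB. The calls of 11 genes (ATP6AP1, CTSA, CTSD, DNASE2, GAA, GALNS, GRN, LAMP2, LIPA, NAGLU and PSAP) were kept in every alternative fit run, leaving out each library included. Scaling each library to the median ratio over tested genes left 16 of the 45 higher and 1 lower, while the split over all tested genes moved from 1180 higher and 726 lower to 884 higher and 999 lower. With quantile normalization 17 of the 45 were higher and 1 lower, beside 923 higher and 912 lower over all tested genes. On the FPKM themselves, 22 of the 45 genes had all 4 dox libraries above all 4 no-dox libraries, against 10.2% of all tested genes. Another 1, ATP6V1H, had them all below, against 6.87% of all tested genes. For each of these 23 genes the two-sided exact permutation test gave p = 0.0286, the smallest that 4 against 4 libraries allow. Any gene without overlap gets this value, so it restates how the 23 were picked. It was not adjusted over genes.

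The stretches of promoter that hold the core of the CLEAR element are shown here for 5 genes that rose and for MCOLN1, which did not pass, because the element is the known binding site of TFEB and TFE3. RefSeq windows on GRCh38.p14 that run from 250 bases before a transcript start to 50 bases from it on matched 35 of the 45 genes (52 windows). ARSA, ASAH1, ATP6V1H, CTSB, HEXA, LAMP2, MANBA, NAGLU, PSAP and SGSH did not match. The core CACGTG, which reads alike on both strands, was in a window of 11 of the 35 genes (31.4%), against 12.8% of the 9600 tested genes with a window. Counted by window, 23.1% of the 52 windows held it, against 9.45% of the 14007 windows of tested genes and 7.26% of all 35116 windows. The longer form TCACGTGA, also alike on both strands and always holding the core, was in 7 of the 35 genes (20%) and in 2.32% of tested genes. By window it was in 15.4% of the 52, in 1.71% of those of tested genes and in 0.98% of all. GTCACGTG, searched on both strands, was in 9 of the 35 genes (25.7%) and in 5.45% of tested genes. By window it was in 19.2% of the 52, in 3.96% of those of tested genes and in 2.4% of all. The 45 genes were chosen as known lysosomal genes, many of which are known targets through this element. A share above that of tested genes therefore goes with the choice of genes and is no result of the dox comparison. Among the 15 matched genes that rose, 5 held the core (33.3%), and among the 20 other matched genes 6 did (30%). These 6 were ARSB, ATP6V0D1, CD63, CLN3, MCOLN1 and NEU1, of which only MCOLN1 is printed. TCACGTGA was in 4 of the 15 (26.7%) and 3 of the 20 (15%), and GTCACGTG in 5 (33.3%) and 4 (20%). Capitals mark CACGTG, each line reads 5′ to 3′ on the gene's strand, and every stretch ends before the transcript start.
GAA, chr17:80101487-80101573, plus strand: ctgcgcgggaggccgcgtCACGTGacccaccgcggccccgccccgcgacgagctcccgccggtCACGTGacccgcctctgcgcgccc
GALNS, chr16:88857098-88857139, minus strand: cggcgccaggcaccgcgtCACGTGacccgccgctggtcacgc
CTSA, chr20:45891275-45891333, plus strand: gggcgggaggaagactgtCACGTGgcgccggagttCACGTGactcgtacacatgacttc
CTSD, chr11:1763951-1763992, minus strand: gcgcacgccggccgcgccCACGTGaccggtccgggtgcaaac
LAMP1, chr13:113297029-113297120, plus strand: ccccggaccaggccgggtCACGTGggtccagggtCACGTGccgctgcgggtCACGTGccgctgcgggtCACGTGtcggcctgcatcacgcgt
MCOLN1, chr19:7522565-7522623, plus strand: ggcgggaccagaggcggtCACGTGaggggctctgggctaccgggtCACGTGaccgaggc
The stretch of LAMP1 holds 4 copies of the core and those of GAA, CTSA and MCOLN1 hold 2 each. Copies nearer the start, 1 of GALNS and 2 of LAMP1, are not printed. A match is a run of letters and says nothing of binding in these cells.

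Of 6 protease genes 3 rose, CTSD, CTSA and TPP1, and the rest did not pass. CTSD, the main aspartic protease of the lysosome, read 68.9 and 71.7 FPKM in sh1 without dox, 80.9 and 81.2 FPKM in sh1 with it, 70.4 and 71.9 FPKM in sh2 without dox and 83 and 82.4 FPKM in sh2 with it. The dox and no-dox libraries did not overlap, and the lines lay close together in each state. CTSD rose by 15.8% in mean FPKM (log2 change 0.21, SE 0.03, adjusted p = 0.00142 by limma). In the GENCODE annotation 1304 of its 3126 exon bases are also exon of the gene model AC068580.4 on the same strand. CTSA, a carboxypeptidase that also holds GLB1 and NEU1 in a stable complex, had 34.9 to 36.7 FPKM in the no-dox libraries and 39.2 to 41.6 FPKM in the dox libraries, with no overlap (log2 change 0.17, SE 0.03, adjusted p = 0.00673 by limma). TPP1, which cuts tripeptides from protein ends, had 17.7 to 20.2 FPKM without dox and 20.7 to 23.6 FPKM with it (log2 change 0.16, SE 0.04, adjusted p = 0.0331 by limma). CTSZ, a carboxypeptidase, had 73.3 to 78.8 FPKM without dox and 79.2 to 82.6 FPKM with it, which did not overlap, though it did not pass in limma (log2 change 0.09, adjusted p = 0.0928). CTSB, the protease gene of highest level, averaged 88.5 FPKM without dox and 86.7 FPKM with it (log2 change -0.03, adjusted p = 0.545 by limma). CTSC, which activates serine proteases of immune cells, averaged 21.2 FPKM and 20.2 FPKM (log2 change -0.07, adjusted p = 0.329 by limma). The call of TPP1 was lost without sh1-onA (adjusted p = 0.059), sh1-onB (0.0971), sh1-offA (0.126), sh2-onB (0.0836), sh2-offA (0.0781) or sh2-offB (0.0997), and its adjusted p ran from 0.00931 to 0.126 over 17 alternatives.

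The 11 glycosidases, which take sugars from glycoproteins, glycolipids and glycosaminoglycans, all had a log2 change above 0, and 6 of them rose. GAA, the acid alpha-glucosidase that breaks down glycogen, read 34.7 and 36.1 FPKM in sh1 without dox, 41.6 and 46.5 FPKM in sh1 with it, 39.9 and 41 FPKM in sh2 without dox and 47.6 and 51.2 FPKM in sh2 with it. All dox libraries lay above all no-dox libraries, and sh2 lay above sh1 in each state. GAA rose by 23.3% in mean FPKM (log2 change 0.29, SE 0.04, adjusted p = 0.00193 by limma). NAGLU, an enzyme of heparan sulfate breakdown, read 5.19 and 4.77 FPKM in sh1 without dox, 6.31 and 6.43 FPKM in sh1 with it, 4.89 and 5.4 FPKM in sh2 without dox and 6.22 and 6.42 FPKM in sh2 with it. The states did not overlap and the lines did. NAGLU rose by 25.3% (log2 change 0.28, SE 0.05, adjusted p = 0.00568 by limma). HEXA, the alpha subunit of the hexosaminidase that degrades ganglioside GM2, read 10.1 and 9.29 FPKM in sh1 without dox, 11.2 and 11.4 FPKM in sh1 with it, 10.2 and 10.6 FPKM in sh2 without dox and 11.1 and 12.7 FPKM in sh2 with it. The states of HEXA did not overlap, and sh2-onB was the highest library (log2 change 0.19, SE 0.05, adjusted p = 0.0293 by limma).

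IDUA, which acts on heparan and dermatan sulfate, had the largest log2 change of the 45 genes but a low level. It read 2.66 and 3.43 FPKM in sh1 without dox, 4.02 and 5.65 FPKM in sh1 with it, 3.66 and 3.12 FPKM in sh2 without dox and 3.81 and 5.2 FPKM in sh2 with it. The states did not overlap, but both dox groups were wide and sh2-onA lay just above the highest no-dox library. IDUA was 45.1% higher with dox (log2 change 0.42, SE 0.11, adjusted p = 0.027 by limma). In the GENCODE annotation 534 of its 4000 exon bases are also exon of SLC26A1 on the opposite strand, and SLC26A1 read 0.77 to 1.17 FPKM without dox and 0.87 to 1.85 FPKM with it. The protocol described for the libraries does not mark strand, so reads there cannot be assigned to either gene. The call of IDUA was lost without sh1-onB (adjusted p = 0.0926), sh1-offA (0.0944), sh2-onB (0.0822), sh2-offA (0.0594) or sh2-offB (0.093). Over 16 alternatives its adjusted p ran from 0.00837 to 0.114.

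Among the other glycosidases, GLB1, the beta-galactosidase, had 17.1 to 18.3 FPKM without dox and 19.4 to 22.1 FPKM with it, and rose (log2 change 0.17, SE 0.04, adjusted p = 0.0158 by limma). FUCA1, which removes fucose, averaged 11.1 FPKM without dox and 12.3 FPKM with it and rose (log2 change 0.14, SE 0.04, adjusted p = 0.0385 by limma), though its states overlapped. The sialidase gene NEU1 had 9.26 to 9.88 FPKM without dox and 10 to 11.5 FPKM with it, with no overlap, and did not pass (log2 change 0.14, adjusted p = 0.0588 by limma). MANBA (0.15, adjusted p = 0.101) and MAN2B1 (0.10, adjusted p = 0.14), both mannosidase genes, did not pass either in limma. GUSB, the beta-glucuronidase, with 11 annotated pseudogene copies, and GLA, the alpha-galactosidase, each read 0.07 on the log2 scale (adjusted p = 0.279 and 0.423 by limma). FUCA1 and the sulfatase gene IDS have 1 annotated pseudogene copy each. The call of HEXA was lost without sh1-onA (adjusted p = 0.055), sh1-onB (0.0879), sh1-offB (0.101), sh2-onB (0.0793), sh2-offA (0.101) or sh2-offB (0.0649), over a range of 0.00944 to 0.101 in 17 alternatives. NEU1 passed without sh2-onA (adjusted p = 0.0254) and where a mean of at least 5 FPKM was required (0.0499). The call of GLB1 was lost without sh1-onB (adjusted p = 0.0527), sh1-offB (0.064), sh2-offA (0.056) or sh2-offB (0.0508), over a range of 0.0084 to 0.064. That of FUCA1 was lost without sh1-onB (adjusted p = 0.129), sh1-offA (0.111), sh1-offB (0.0977), sh2-onA (0.0754), sh2-offA (0.0785) or sh2-offB (0.112), over a range of 0.0301 to 0.129.

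**Figure D2:**
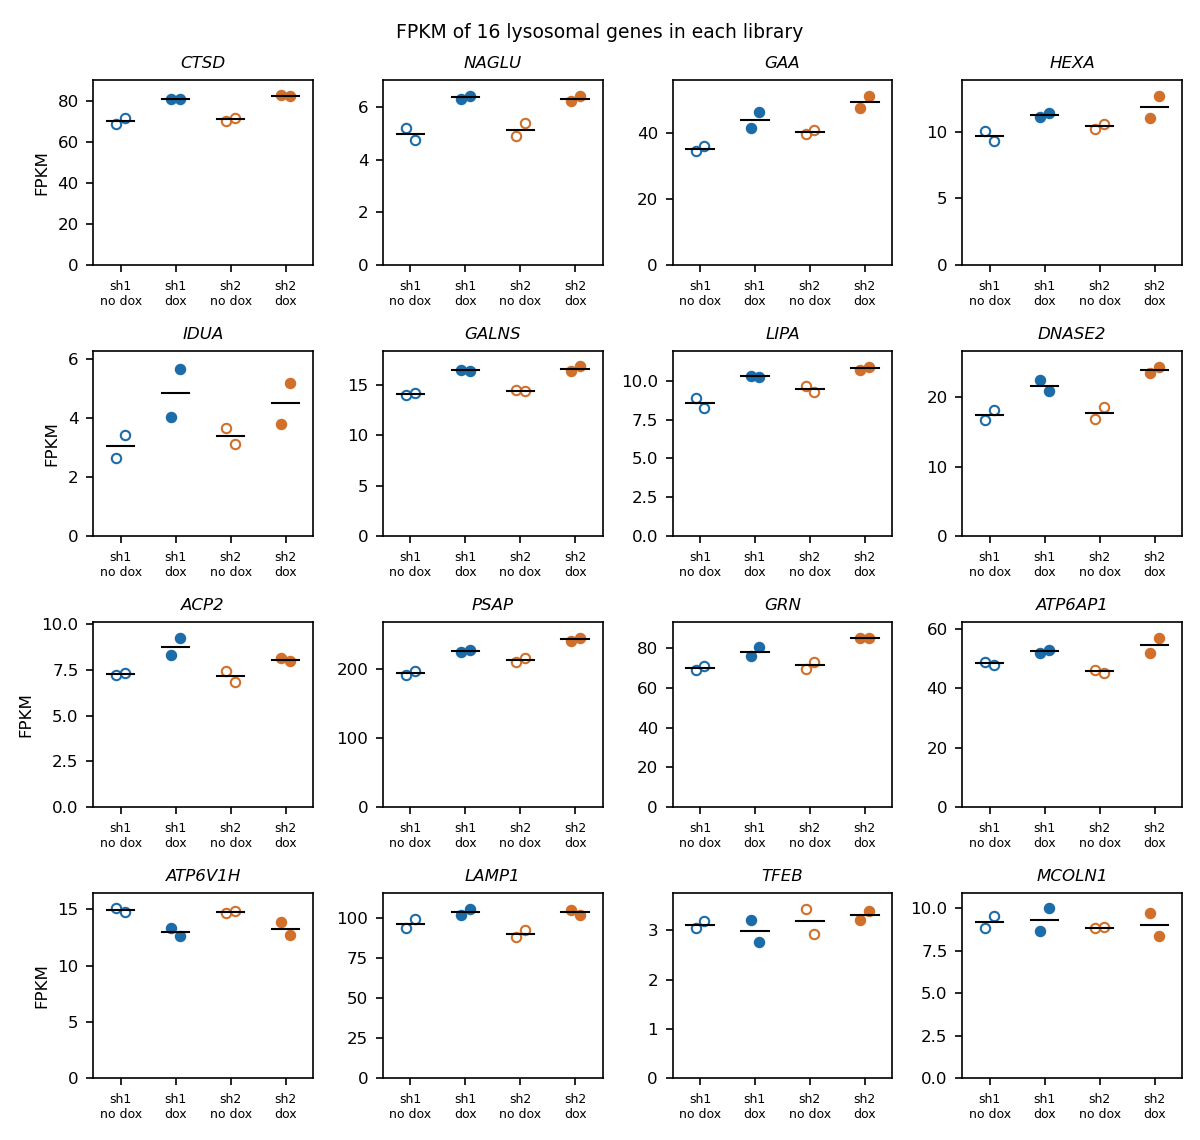
FPKM of 16 of the genes in each of the 8 libraries, with no-dox libraries as open points, dox libraries as filled points, sh1 in blue, sh2 in orange and a line at the mean of each group of 2. CTSD, GALNS, DNASE2 and PSAP are higher with dox in each line, ATP6V1H is lower, and the points of TFEB and MCOLN1 overlap.

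Of the 5 sulfatases 1 rose, GALNS, which acts on keratan and chondroitin sulfate. It read 14 and 14.2 FPKM in sh1 without dox, 16.4 and 16.4 FPKM in sh1 with it, 14.5 and 14.4 FPKM in sh2 without dox and 16.3 and 16.9 FPKM in sh2 with it. Its 4 no-dox libraries lay within 14 to 14.5 FPKM and its 4 dox libraries within 16.3 to 16.9 FPKM, with no overlap (log2 change 0.20, SE 0.03, adjusted p = 0.00483 by limma). The other sulfatase genes had log2 changes above 0 and did not pass in limma. These were ARSA, which acts on sulfatide (0.17, adjusted p = 0.117), SGSH of heparan sulfate breakdown (0.13, adjusted p = 0.136), ARSB (0.04, adjusted p = 0.685) and IDS of heparan and dermatan sulfate breakdown (0.03, adjusted p = 0.609). ARSA and SGSH passed in the fit without sh2-onA (adjusted p = 0.0174 and 0.0147).

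DNASE2, the acid nuclease that digests DNA in the lysosome, showed the largest rise among the genes above 5 FPKM. It read 16.7 and 18.2 FPKM in sh1 without dox, 22.5 and 20.9 FPKM in sh1 with it, 16.9 and 18.6 FPKM in sh2 without dox and 23.5 and 24.3 FPKM in sh2 with it. The lowest dox library lay above the highest no-dox library in each line. DNASE2 rose by 29.5% (log2 change 0.35, SE 0.05, adjusted p = 0.00117 by limma). LIPA, the acid lipase that frees cholesterol from its esters, read 8.92 and 8.26 FPKM in sh1 without dox, 10.3 and 10.2 FPKM in sh1 with it, 9.68 and 9.28 FPKM in sh2 without dox and 10.7 and 10.9 FPKM in sh2 with it. Its states did not overlap, and sh2 lay above sh1 within each state (log2 change 0.20, SE 0.04, adjusted p = 0.00985 by limma). ACP2, the lysosomal acid phosphatase, read 7.19 and 7.32 FPKM in sh1 without dox, 8.3 and 9.22 FPKM in sh1 with it, 7.43 and 6.85 FPKM in sh2 without dox and 8.12 and 7.95 FPKM in sh2 with it. Its states did not overlap and sh1-onB was the highest library (log2 change 0.20, SE 0.05, adjusted p = 0.0204 by limma). The call of ACP2 was lost without sh1-onB (adjusted p = 0.0763), sh1-offA (0.0713), sh1-offB (0.0527) or sh2-offB (0.0732), over a range of 0.0156 to 0.0763 in 17 alternatives. In the annotation 189 of its 3484 exon bases are shared with NR1H3 on the opposite strand. Other called genes share more. CTSA shares 17.7% of its exon bases with NEURL2 on the opposite strand, which averaged 0.055 FPKM. NAGLU shares 12.6% with AC067852.1 and TPP1 11.55% with AC091564.7, both on the same strand. HEXA shares 10.1% with AC009690.2 on the opposite strand. Among genes not called, CLN3 shares 25.2% with AC138894.1 on the same strand. Further overlaps are not listed.

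Of the 4 other genes of lipid breakdown 1 rose, ASAH1, the acid ceramidase, which read 19.3 ± 0.292 FPKM without dox and 21 ± 0.35 FPKM with it (SD, n = 4 libraries per state), a log2 change of 0.11 (SE 0.03, adjusted p = 0.0402 by limma). The call of ASAH1 was lost without any of 7 libraries, with adjusted p = 0.0861 without sh1-onA, 0.0958 without sh1-onB, 0.0944 without sh1-offA, 0.128 without sh1-offB, 0.0673 without sh2-onA, 0.085 without sh2-offA and 0.113 without sh2-offB, over a range of 0.0243 to 0.128. PPT1, which removes fatty acids from proteins, averaged 28.2 FPKM without dox and 28 FPKM with it (adjusted p = 0.881 by limma), and 1189 of its 5088 exon bases are shared with CAP1 on the opposite strand, at 136 FPKM. PLA2G15, a phospholipase, averaged 4.68 FPKM without dox and 4.18 FPKM with it (log2 change -0.13, adjusted p = 0.15 by limma). SMPD1, the acid sphingomyelinase, read 3.4 and 3.24 FPKM in sh1 without dox, 3.08 and 2.97 FPKM in sh1 with it, 2.77 and 3.1 FPKM in sh2 without dox and 3.48 and 3.79 FPKM in sh2 with it. It was lower with dox in sh1 and higher in sh2 without overlap in either line, and neither line passed in limma (adjusted p = 0.456 and 0.143).

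The activator gene PSAP and the granulin gene GRN rose, and the carrier gene NPC2 did not pass. PSAP, whose product is cut into the saposins that present lipids to hydrolases, read 192 and 197 FPKM in sh1 without dox, 224 and 228 FPKM in sh1 with it, 211 and 216 FPKM in sh2 without dox and 242 and 246 FPKM in sh2 with it. Each dox library was above every no-dox library, and sh2 was above sh1 in each state. PSAP rose by 15.2% in mean FPKM (log2 change 0.20, SE 0.03, adjusted p = 0.0011 by limma), the smallest adjusted p of the 45 genes. GRN, the precursor of the granulins, which binds PSAP on its way to the lysosome, read 69 and 71 FPKM in sh1 without dox, 75.9 and 80.5 FPKM in sh1 with it, 69.7 and 73.1 FPKM in sh2 without dox and 85.4 and 85.4 FPKM in sh2 with it. The states of GRN did not overlap and the sh2 dox libraries were the highest (log2 change 0.21, SE 0.03, adjusted p = 0.00278 by limma). NPC2, which hands cholesterol to NPC1, averaged 81.9 ± 4.18 FPKM without dox and 84.6 ± 1.07 FPKM with it (SD, n = 4 libraries per state; adjusted p = 0.256 by limma).

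Of 9 membrane protein genes 3 rose. LAMP1, the most abundant glycoprotein of the lysosomal membrane along with LAMP2, read 93.9 and 99.4 FPKM in sh1 without dox, 102 and 106 FPKM in sh1 with it, 88.2 and 92.5 FPKM in sh2 without dox and 105 and 102 FPKM in sh2 with it. The dox libraries all lay above the no-dox libraries, of which those of sh2 were the lowest (log2 change 0.15, SE 0.03, adjusted p = 0.0117 by limma). LAMP2, which also serves autophagy, had 16.6 to 17.5 FPKM without dox and 18.8 to 19.6 FPKM with it, with no overlap (log2 change 0.16, SE 0.03, adjusted p = 0.012 by limma). LAPTM4A, a small transmembrane protein of late endosomes and lysosomes, had 58.8 to 65.9 FPKM without dox and 66.3 to 67.8 FPKM with it (log2 change 0.11, SE 0.03, adjusted p = 0.0261 by limma). SCARB2, an abundant protein of the lysosomal membrane, had 19.8 to 20.7 FPKM without dox and 21.1 to 23 FPKM with it. Its states did not overlap and it did not pass (log2 change 0.10, adjusted p = 0.0881 by limma), but it did without sh2-onA (adjusted p = 0.0335). The tetraspanin gene CD63 (0.08, adjusted p = 0.185), the calcium channel gene MCOLN1 (0.02, adjusted p = 0.852) and CLN3 (0.00258, adjusted p = 0.972) did not pass in limma. Neither did NPC1 of cholesterol export (-0.00554, adjusted p = 0.942) and CTNS of cystine export (-0.02, adjusted p = 0.868). MCOLN1 had 8.83 to 9.5 FPKM without dox and 8.34 to 9.97 FPKM with it, with the CLEAR sequence in its promoter window as shown above. CD63 passed without sh2-onB (adjusted p = 0.0222). The call of LAMP1 was lost without sh1-offA (adjusted p = 0.0589) or sh2-offA (0.0522), over a range of 0.00435 to 0.0589. That of LAPTM4A was lost without sh1-onA (adjusted p = 0.0562), sh1-onB (0.0811), sh1-offA (0.0708), sh1-offB (0.0998), sh2-onB (0.0502) or sh2-offA (0.0989), over a range of 0.0151 to 0.0998.

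The 3 V-ATPase genes differed in direction. ATP6AP1, an accessory subunit needed to assemble the membrane sector, read 49 and 48 FPKM in sh1 without dox, 52.1 and 52.9 FPKM in sh1 with it, 46.3 and 45.2 FPKM in sh2 without dox and 52 and 57.1 FPKM in sh2 with it. All its dox libraries lay above its no-dox libraries (log2 change 0.18, SE 0.03, adjusted p = 0.00854 by limma). ATP6V1H, a subunit of the cytosolic sector, read 15.1 and 14.8 FPKM in sh1 without dox, 13.3 and 12.7 FPKM in sh1 with it, 14.7 and 14.8 FPKM in sh2 without dox and 13.8 and 12.7 FPKM in sh2 with it. All its dox libraries lay below its no-dox libraries, and it fell (log2 change -0.17, SE 0.04, adjusted p = 0.0204 by limma). The call of ATP6V1H was lost without sh1-onB (adjusted p = 0.0731), sh1-offA (0.0757), sh1-offB (0.052), sh2-onB (0.054), sh2-offA (0.063) or sh2-offB (0.063), over a range of 0.0103 to 0.0757 in 17 alternatives. ATP6V0D1 of the membrane sector averaged 27.6 FPKM without dox and 26.4 FPKM with it (log2 change -0.06, adjusted p = 0.393 by limma).

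TFEB, the factor known to drive many lysosomal genes, did not pass in any of the comparisons. It read 3.05 and 3.19 FPKM in sh1 without dox, 3.21 and 2.76 FPKM in sh1 with it, 3.44 and 2.93 FPKM in sh2 without dox and 3.22 and 3.4 FPKM in sh2 with it. The states overlapped in each line, and the averaged log2 change was -0.00267 with a 95% interval from -0.14 to 0.14 (adjusted p = 0.984 by limma). Its relative TFE3 stood at a higher level, 11.4 FPKM without dox and 12.4 FPKM with it (log2 change 0.11, adjusted p = 0.17 by limma). MITF and TFEC, of the same family, averaged 0.466 and 0.0175 FPKM and were not tested. TFEB and TFE3 are known to be controlled largely by phosphorylation and entry into the nucleus, which transcript levels do not measure.

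The 2 hairpin lines were then compared. In sh1 alone, 9 of the 45 genes were higher and 0 lower by limma, against 3.71% and 2.56% of all tested genes (6.27% in either direction), and 24 had an unadjusted p under 0.05. In sh2 alone, 6 were higher and 0 lower by limma, against 1.38% and 1.15% of all tested genes (2.54% in either direction), and 22 had an unadjusted p under 0.05. DNASE2, GAA, CTSD and PSAP were the 4 genes called higher in both single-line comparisons. The largest changes called in sh1 were GAA (0.31, adjusted p = 0.0176), NAGLU (0.30, adjusted p = 0.0324), DNASE2 (0.30, adjusted p = 0.0255), LIPA (0.24, adjusted p = 0.0411) and PSAP (0.22, adjusted p = 0.0107), all by limma. Those in sh2 were DNASE2 (0.41, adjusted p = 0.0124), GAA (0.28, adjusted p = 0.0377), GRN (0.26, adjusted p = 0.0201), ATP6AP1 (0.25, adjusted p = 0.0324) and CTSD (0.21, adjusted p = 0.0255), by limma. Each of these changes rests on 2 libraries against 2, while the spread was estimated over all 8 libraries, so the 2 tests are not independent. On the FPKM of sh1, 28 of the 45 genes had both dox libraries above both no-dox libraries and 6 had them below, against 35.1% and 21.9% of all tested genes. In sh2 these counts were 28 and 2, against 26.1% and 21.2%. The sh1 count fell from 9 to 2 without sh1-onA and to 0 without sh1-onB, sh1-offA or sh1-offB. The sh2 count fell from 6 to 0 without sh2-onB or sh2-offA, to 1 without sh2-offB and to 3 without sh1-offA or sh1-offB.

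**Figure D3:**
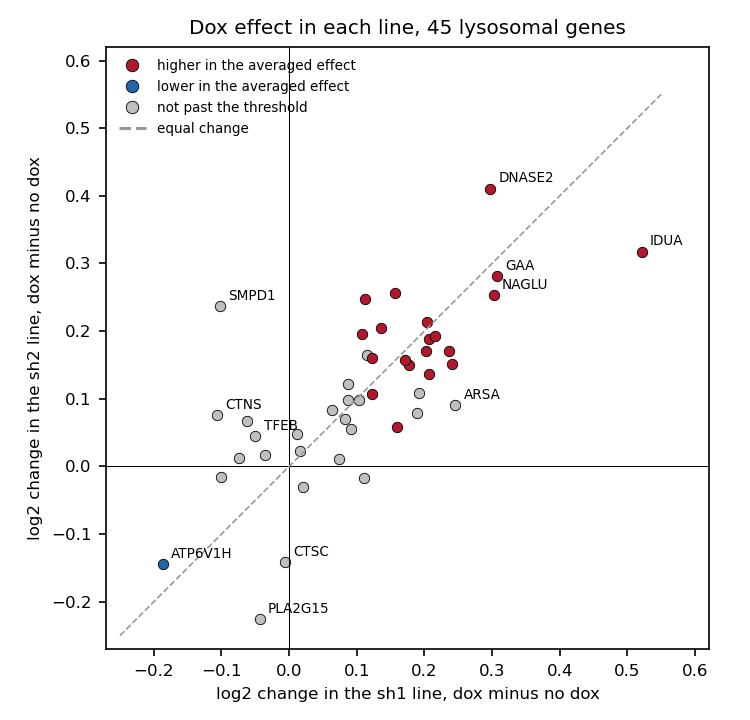
Log2 change of (FPKM + 1) with dox in the sh1 line (horizontal) and in the sh2 line (vertical) for the 45 genes, coloured by the call in the averaged effect, with a dashed line of equal change. The 33 genes above 0 in both lines lie above and to the right of the zero lines, among them all 20 genes called higher.

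The lines have separate control libraries. Of the 45 genes 33 had a log2 change above 0 in both lines, against 42% of all tested genes, and 4 were below 0 in both, against 30.4%. The remaining 8 had opposite signs. In the direct test of the difference between the lines (sh2 minus sh1), 0 of the 45 genes passed by limma, where 0% of all tested genes were called, and 2 had an unadjusted p under 0.05. They were SMPD1 (difference 0.34, 95% interval 0.09 to 0.59) and NPC2 (difference -0.13, 95% interval -0.25 to -0.00950), both with adjusted p = 0.992 by limma. The intervals of single genes were wide, as for IDUA (difference -0.20, 95% interval -0.69 to 0.28). Before induction, 0 of the 45 genes differed between the lines by limma (sh2 minus sh1), against 0.828% of all tested genes higher and 0.623% lower (1.45% in either direction), and 7 had an unadjusted p under 0.05. Among these GAA (0.19, adjusted p = 0.132) and PSAP (0.13, adjusted p = 0.104) were higher in sh2 in the no-dox libraries, and CTNS read lower there (-0.20, adjusted p = 0.206).

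Levels ranged widely within the list. CD63 at 225 FPKM and PSAP at 219 FPKM stood highest on average over the 8 libraries, followed by LAMP1 at 98.7 FPKM, CTSB at 87.6 FPKM and NPC2 at 83.3 FPKM. Without dox CD63 averaged 219 ± 8.14 FPKM and PSAP 204 ± 11 FPKM, and with it 231 ± 13.5 and 235 ± 10.3 FPKM (SD, n = 4 libraries per state). CD63 read above PSAP in each of the 4 no-dox libraries, though the ranges of the 2 genes overlapped in each state. The libraries of CTSZ at 78.4, CTSD at 76.3 and GRN at 76.3 FPKM overlapped as well. At the low end ARSB at 2.64, TFEB at 3.15, SMPD1 at 3.23 and CTNS at 3.47 FPKM each overlapped the next in order. The summed FPKM of the 45 genes was 1482 and 1500 in sh1 without dox, 1612 and 1630 in sh1 with it, 1538 and 1549 in sh2 without dox and 1690 and 1679 in sh2 with it. The sum was thus higher with dox in each line, without overlap. CD63 and PSAP, the genes of highest level, weigh most in it, so it is no measure of how many genes rose.

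Other genes of the pathway were counted in the same fit, and their calls were not followed through the alternative fits. Of 36 other tested hydrolase genes 11 rose and 0 fell by limma (median log2 change 0.11; 20 with an unadjusted p under 0.05). The esterase gene SIAE, which removes acetyl groups from sialic acid, averaged 12 FPKM without dox and 15.2 FPKM with it, and rose by limma (0.31 on the log2 scale, adjusted p = 0.00102). The acid ribonuclease gene RNASET2 (0.27, adjusted p = 0.00211) and PLBD2 (0.21, adjusted p = 0.0034) rose too by limma. Of 32 other membrane protein genes 4 rose and 1 fell, with a median of 0.05. TMEM9 (0.15, adjusted p = 0.0148), TMEM106B (0.19, adjusted p = 0.0207) and the transporter gene ABCA2 (0.14, adjusted p = 0.0249) rose by limma. SLC17A5, which exports sialic acid, fell (-0.19, adjusted p = 0.0199).

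Of 17 other V-ATPase subunit genes 2 rose and 1 fell, with a median of 0.02. ATP6V0E2 (0.24, adjusted p = 0.013) and ATP6AP2 (0.13, adjusted p = 0.0184) rose by limma, and ATP6V1A, a catalytic subunit, fell (-0.14, adjusted p = 0.0383). ATP6V1C1 did not pass (-0.12, adjusted p = 0.0937). Of 25 genes of sorting to the lysosome 3 rose and 1 fell, with a median of 0.00816. AP1M2 (0.18, adjusted p = 0.00885) and GGA1 (0.14, adjusted p = 0.0191) of clathrin adaptors and VPS39 of the fusion machinery (0.14, adjusted p = 0.0388) rose by limma, and AP3S1 fell (-0.17, adjusted p = 0.0249). Of 21 genes of the Ragulator, the Rag GTPases and other mTORC1 regulators 2 rose and 0 fell by limma, with a median of 0.02 and 2 with an unadjusted p under 0.05. They were MLST8 (0.14, adjusted p = 0.042) and LAMTOR2 (0.12, adjusted p = 0.0496). LAMTOR3 (0.11, adjusted p = 0.156) and TSC2 (0.09, adjusted p = 0.187) did not pass. Beside the 10.1% of all tested genes that were higher, the share was 30.6% for the other hydrolases, 12.5% for the other membrane proteins, 11.8% for the other V-ATPase subunits, 12% for the sorting genes and 9.52% for the mTORC1 regulators.

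**Figure D4:**
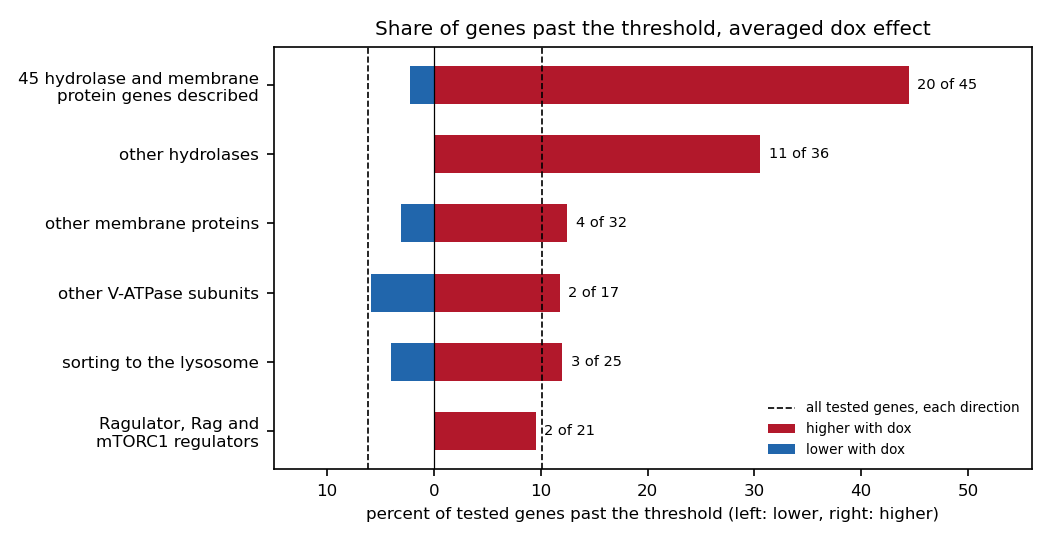
Percent of tested genes past the threshold in the averaged dox effect for the 45 genes and 5 other lists, with genes called higher to the right of 0 and genes called lower to the left, and dashed lines at the shares of all tested genes. The 45 genes (20 of 45) and the other hydrolases (11 of 36) extend far to the right of the dashed line at 10.1%, while the other 4 lists end near it.

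The epithelial markers moved in both directions with dox in the averaged effect. KRT8 (-0.24, adjusted p = 5.86e-04) and KRT18 (-0.29, adjusted p = 8.27e-04) fell by limma. CDH1 (0.24, adjusted p = 0.0029) and EPCAM (0.13, adjusted p = 0.0106) rose by limma. KRT8 averaged 1484 FPKM without dox and 1162 FPKM with it in sh1, and 1141 and 1051 FPKM in sh2. KRT18 averaged 819 and 622 FPKM in sh1, and 640 and 566 FPKM in sh2. The states of both keratins overlapped over the 2 lines, though not within either line. PTPRC, the leukocyte marker CD45, averaged 1.15 FPKM without dox (1.09 to 1.23) and 1.46 FPKM with it (1.31 to 1.64). Its states did not overlap, and it did not pass (log2 change 0.19, adjusted p = 0.0912 by limma). The part of these shifts in the rise of the lysosomal genes was not tested.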

How the data were processed

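The authors deposited FPKM per gene and library, for polyA-selected RNA. The submitters' processing notes name HISAT, Bowtie2 and build hg19. For the quantifier, tool versions and gene models, the answer is not given in the sources used here. The notes and labels give no read depth, so the precision behind a value is known only from the 2 libraries per group, and p-values measure the spread between these repeats. Genes averaging at least 1 FPKM (11712 of 17166) were fitted in limma 3.58.1 under R 4.3.3 on log2(FPKM + 1), with 1 mean for each of 4 groups over all 8 libraries, a trend in the moderation, two-sided p-values and Benjamini-Hochberg adjustment across the genes tested. Such log2 changes understate those of low genes. The fit was tested on simulated data. The members, the gene lists and the naming rule (every member by role, per-library values for up to 12 called members each way in the averaged effect, 5 in each other comparison, and the 4 smallest p per further list; LAMP1, SMPD1 and the single calls beyond it were added after values were seen) were chosen with earlier results of these data known; overlapping genes were named after values were seen. Promoter windows are from RefSeq, overlaps from GENCODE 29, both on GRCh38, used for sequence and annotation only, since the table holds no coordinates. Groups follow the titles, because the source field says induced for all samples. Alternatives were the pseudocount, the filter, scaling, the moderation, no term for the line, a replicate block and leaving out each library. Plots were made with matplotlib 3.10.9 under Python 3.11.15. One gene that the naming rule picks from a further list is not reported here.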

Additional observations from a re-analysis of the deposited data

How the results depend on the processing

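The averaged effect kept the direction of all 21 called genes in every alternative that tested them (IDUA was not tested at a mean of 5 FPKM or more), and 11 of the calls held throughout. The count of 20 higher ran from 15 to 23 over the settings other than leaving out a library and from 12 to 22 when each library was left out, and that of 1 lower from 0 to 1. The sh1 count of 9 higher was 2 with no filter on low values and 1 with no trend, and ran from 0 to 10 leaving out a library, while the 0 lower became 1 with the replicate block and ran from 0 to 1. The sh2 count of 6 higher was 0 with no filter and 1 with no trend, and ran from 0 to 7. The filter and the moderation change the genes adjusted over and the variance prior, and the cause was not tested. Repeat numbers are given in the labels without a shared day or culture, so the numbers were not taken as pairs. Replicate 1 deviations from the group means correlated at -0.03 to 0.22 between groups. Whether libraries of the same repeat number share an effect was not tested. The replicate block gave 23 higher and 1 lower in the averaged effect. CTSZ (adjusted p = 0.0221), NEU1 (0.0396) and SCARB2 (0.0474) gained a call by limma. Without dox 2 genes, in place of 0, were higher in sh2 than in sh1. Over all tested genes the block moved the averaged effect from 1180 higher and 726 lower to 1635 higher and 1049 lower. Genes that did not pass changed sign near 0: with quantile normalization ARSB read -0.00524, MCOLN1 -0.00876 and CLN3 -0.00897, and with median-ratio scaling CLN3 read -0.0155. Leaving out each library in turn gave ranges that cross 0: ARSB -0.00202 to 0.0875, PPT1 -0.038 to 0.0185, NPC1 -0.0325 to 0.0214, MCOLN1 -0.0300 to 0.0688, CLN3 -0.0216 to 0.0267, CTNS -0.0466 to 0.0149 and TFEB -0.0467 to 0.0413. No read depth is known, so the share of spread due to counting cannot be set.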
